A study of Homo sapiens with 4 samples.

Results

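HMGA1 and NUCKS1 encode chromatin proteins, and both transcripts carried several separate regions in an iCLIP survey of RNA bound by the helicase MOV10. The regions are those of the deposited list that overlap chr6:34204577-34214008 on the plus strand (HMGA1) or chr1:205681947-205719372 on the minus strand (NUCKS1), with hg19 positions counted from 1. This rule gave 9 of the 1181 listed regions, 4 in HMGA1 and 5 in NUCKS1, and they held 45 of 4021 aligned reads in experiment 1 and 52 of 6032 in experiment 2. The genes were chosen by where listed regions lie, which is itself a readout of these data, so the number and place of their regions are descriptions and were not tested. The cells were HEK293F, a suspension line derived from human embryonic kidney, and no genotype or treatment besides the UV cross-linking of the design is given in the labels. Each experiment paired a pull-down by a MOV10 antibody with a control that used a rabbit antibody to zebra finch FMRP, so that 4 libraries form 2 groups of 2. The labels assign each list of reads to both pull-downs of its experiment. Every value below therefore describes an experiment, and enrichment by the MOV10 antibody was not tested.

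MOV10 is an RNA helicase that moves along RNA in the 5′ to 3′ direction and is known to bind 3′ untranslated regions (3′ UTRs) and to associate with Argonaute proteins of the microRNA pathway. HMGA1 is a small architectural protein whose AT-hooks grip the minor groove of AT-rich DNA; it is abundant in embryonic and transformed cells. NUCKS1 is a nuclear phosphoprotein that binds DNA and chromatin, is a substrate of casein kinase and cyclin-dependent kinases, and takes part in DNA repair by homologous recombination. In iCLIP, reverse transcription of the cross-linked RNA often ends where the protein was attached, and the start of a read then marks a position next to the contact.

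The primers for reverse transcription carried a library barcode flanked by random bases. The barcodes are shown because they are what told the libraries apart, with the 4 fixed bases in capitals and the 5 random bases as n, in the order of the labels.
MOV10 pull-down, experiment 1: nnnTGGAnn
control pull-down, experiment 1: nnnGTTAnn
MOV10 pull-down, experiment 2: nnnGGCCnn
control pull-down, experiment 2: nnnCCGCnn
Neither the fixed nor the random bases appear in the deposited read lists. Reads that are copies of a single molecule could thus not be recognised by their random bases, and distinct fragments, reads with the same pair of ends counted once, were used beside reads.

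The 9 regions lay near the 3′ ends of their genes. In HMGA1, numbered from 5′ to 3′ along the transcript, region 1 was chr6:34212946-34213068, region 2 chr6:34213414-34213473, region 3 chr6:34213768-34213827 and region 4 chr6:34213936-34213959. They were 123, 60, 60 and 24 nt wide and were separated by 345, 294 and 108 nt, so that they became closer toward the 3′ limit. The set ran from 1062 to 49 nt before the 3′ limit of the gene and covered 267 of 1014 nt (26.3%). In NUCKS1, region 1 was chr1:205685693-205685737, region 2 chr1:205685347-205685394, region 3 chr1:205684613-205684657, region 4 chr1:205684333-205684383 and region 5 chr1:205682902-205682929. Their widths were 45, 48, 45, 51 and 28 nt and the gaps 298, 689, 229 and 1403 nt, from 3790 to 955 nt before the 3′ limit. They covered 217 of 2836 nt (7.65%), a thinner coverage than in HMGA1. The median width over all 1181 regions was 38 nt.

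For comparison of lengths alone, GENCODE 29, an annotation of another build, gives HMGA1 a 3′ UTR of up to 1347 nt and NUCKS1 one of 5461 nt, each within the last exon. All 9 distances from the 3′ limit fall within these lengths. No position was converted between builds, so the placement in the 3′ UTR rests on length only. No listed region lay in the genes' limits on the opposite strand (0 regions). The nearest listed regions outside the limits on the same strand were 1264873 and 1985421 nt away from HMGA1 and 1289953 and 4236739 nt away from NUCKS1. They held 1 to 7 reads in either experiment. With regions up to 1000 nt apart on a strand joined to a locus, HMGA1 formed 1 locus of 4 regions and NUCKS1 a locus of 4 with region 5 on its own. Among the 1079 loci of the list, 9 held 4 or more regions.

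**Figure D1:**
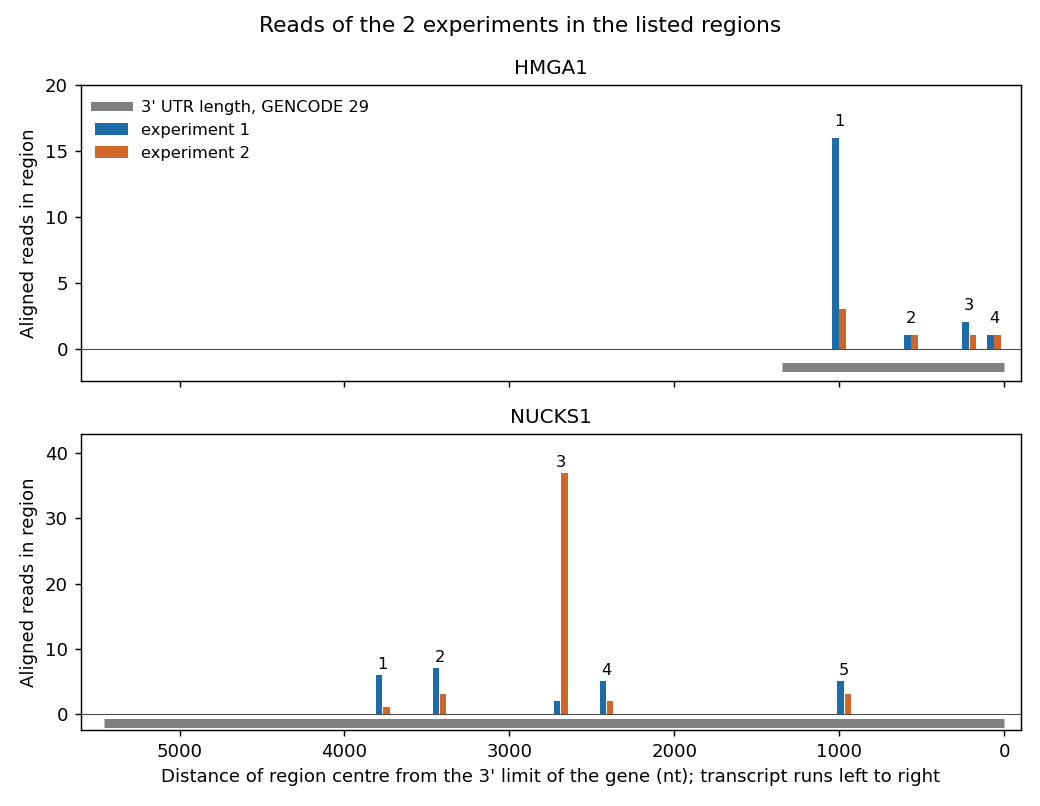
Aligned reads (vertical axis) in each listed region of HMGA1 and NUCKS1 against the distance of the region's centre from the 3′ limit of the gene in nt (horizontal axis), with bars for experiments 1 and 2, region numbers above them and a grey bar for the 3′ UTR length in GENCODE 29. HMGA1 region 1 held 16 and 3 reads and NUCKS1 region 3 held 2 and 37, while the other 7 regions held at most 7 reads.

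HMGA1 had 20 reads of experiment 1 and 6 of experiment 2, which were 0.497% (95% exact Clopper-Pearson interval 0.304 to 0.767) and 0.0995% (interval 0.0365 to 0.216) of the listed reads. Intervals here cover counting error only. By distinct fragments the numbers were 11 and 5, or 0.609% (interval 0.304 to 1.09) and 0.302% (interval 0.0981 to 0.703) of all distinct fragments, with intervals that overlap. Region 1 held 16 of the 20 reads of experiment 1 and 3 of the 6 of experiment 2. Regions 2, 3 and 4 held 1, 2 and 1 reads in experiment 1 and 1 each in experiment 2, which is as few as a listed region can hold in the latter. The HMGA1 signal thus came mostly from a single stretch about 1 kb before the 3′ limit in experiment 1, and the same region held the most reads in experiment 2, though only 3.

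NUCKS1 had 25 reads of experiment 1 and 46 of experiment 2, or 0.622% (interval 0.403 to 0.916) and 0.763% (interval 0.559 to 1.02) of the listed reads. Its distinct fragments numbered 11 and 10, or 0.609% and 0.604%, so the genes had equal numbers of fragments in experiment 1. In experiment 1 the 5 regions, from 5′ to 3′, held 6, 7, 2, 5 and 5 reads, a nearly even spread in which region 3 was the lowest. In experiment 2 they held 1, 3, 37, 2 and 3 reads, and region 3 alone took 80.4% of the gene's reads. Without region 3, NUCKS1 held 23 and 9 reads. The log2 ratio of shares, experiment 2 over 1, was 0.29 for the whole gene and -1.93 without that region. The median ratio over the 1181 single regions was itself negative, at -1.17.

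HMGA1 region 1 was the only HMGA1 region with more than 1 distinct fragment in an experiment. Its 16 reads of experiment 1 formed 8 fragments with 6 different 5′ ends, and its 3 reads of experiment 2 formed 2 fragments with 1 5′ end. A stretch of 5 nt, chr6:34213020-34213024, held the 5′ ends of 13 of the 16 reads of experiment 1, and all 3 reads of experiment 2 began inside it, at 34213023. That base was also the commonest 5′ end in experiment 1, with 5 reads. The fragment from 34213023 to 34213068, 46 nt long, had the same ends in both experiments, with 4 reads in experiment 1 and 2 in experiment 2. The first 43 nt of the region, up to 34212988, rested on 1 read of experiment 1 that abuts the next read without overlapping it, so the width of 123 nt depends on that read and on the joining of abutting reads. By width the region ranked 5 among the 1181, and 19 regions held 8 or more fragments in experiment 1.

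NUCKS1 region 3 had a different structure in each experiment. In experiment 1 its 2 reads shared both ends and spanned all 45 nt, from the 5′ end at 205684657 to the 3′ end at 205684613, with mapping quality 70. In experiment 2 all 37 reads were 20 to 22 nt wide, and 34 of them had their 5′ end at 205684634, which is 23 nt downstream of that of experiment 1. The commonest fragment, from 205684613 to 205684634, kept the 3′ end of the fragment of experiment 1. It held 29 of the 37 reads. The 5 distinct fragments of experiment 2 had ends within 3 nt of each other and became 1 when such fragments were counted once.

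The read names of this region also gave unequal copy numbers. A name ends in 2 numbers, taken here as the number of identical copies behind a read and its rank. In experiment 2, 3 reads with the ends 205684613 and 205684634 carried 405, 369 and 129 copies, 1 read in each of the 3 groups of read names, which are told apart by the start of the name. They made up 93.4% of the 967 copies in the region. Of the 37 reads, 31 carried at most 2 copies. In experiment 1 the region held 4 copies. The highest copy number elsewhere in either gene was 10, reached in HMGA1 region 1 and in NUCKS1 region 5, both in experiment 1. Over all listed reads there were 4.11 copies a read in experiment 1 and 14.6 in experiment 2. In experiment 2, 23 of the listed regions, this one included, held 37 or more reads.

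**Figure D2:**
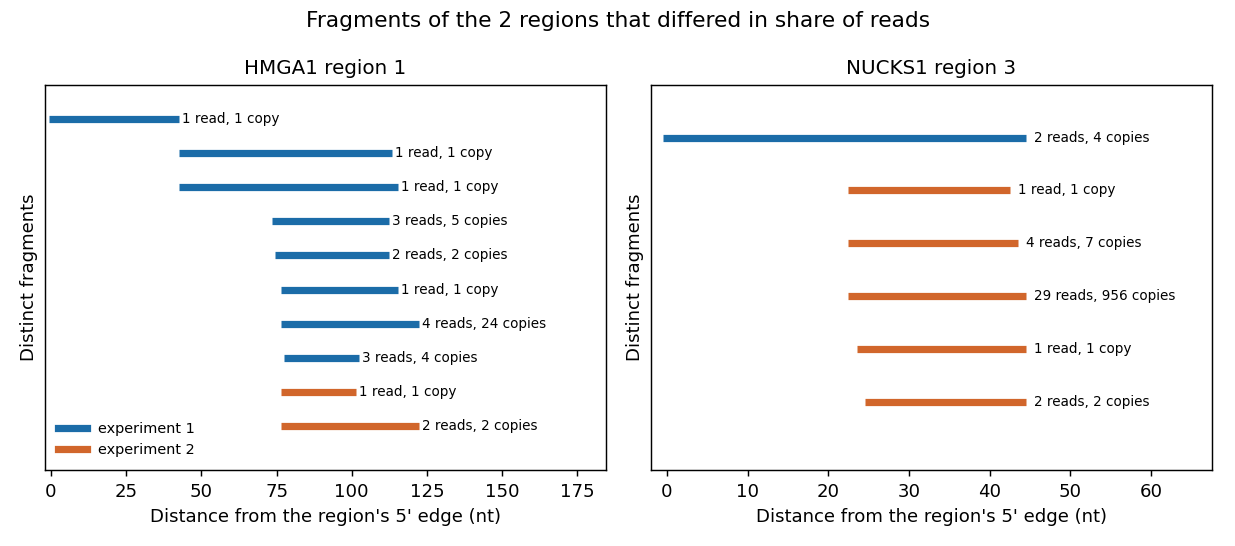
Distinct fragments of HMGA1 region 1 and NUCKS1 region 3, drawn as bars from 5′ to 3′ over the distance from the region's 5′ edge in nt, 1 row a fragment, coloured by experiment and marked with reads and summed copies. Fragments of NUCKS1 region 3 from experiment 2 cover only the 3′ part of the fragment of experiment 1, and the one of 29 reads holds 956 copies.

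The shares of reads in the 2 experiments, which are replicates of the same pull-downs and not conditions, were compared over the whole list. Of 1181 regions, 54 differed (4.57% of those tested; two-sided Fisher's exact test with Benjamini-Hochberg adjustment, adjusted p under 0.05), and 2 of the 9 regions of HMGA1 and NUCKS1 were among them, in opposite directions. With 9 regions, that count is read only as naming those 2. HMGA1 region 1 held 0.398% of reads in experiment 1 (interval 0.228 to 0.645) and 0.0497% in experiment 2 (interval 0.0103 to 0.145), a log2 ratio of -3.00 (Fisher's exact test, adjusted p = 0.00473). NUCKS1 region 3 held 0.0497% (interval 0.00602 to 0.18) and 0.613% (interval 0.432 to 0.845), a log2 ratio of 3.62 (Fisher's exact test, adjusted p = 4.82e-05). The test takes reads as independent. However, the 37 reads of NUCKS1 region 3 in experiment 2 formed 5 fragments, and the 16 reads of HMGA1 region 1 in experiment 1 formed 8. These p-values can therefore be too small. Regions called higher in experiment 1 made up 2.46% of the list and those called higher in experiment 2 made up 2.12%.

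Neither call held under every way of counting. By distinct fragments, HMGA1 region 1 held 8 and 2 (log2 ratio -1.87) and NUCKS1 region 3 held 1 and 5 (log2 ratio 2.45). Neither passed (Fisher's exact test, adjusted p = 1 for each, with 0.423% of regions called). So few fragments could not have passed however they were split between the experiments. This count therefore does not decide whether the shares differ, and both ratios kept their direction. With reads of mapping quality 30 or more, NUCKS1 region 3 kept 2 and 7 reads and lost its call (log2 ratio 1.29, Fisher's exact test, adjusted p = 1). So few reads could not have passed as higher in experiment 2, even with all of them there. HMGA1 region 1 kept 13 and 2 reads and its call (log2 ratio -3.21, Fisher's exact test, adjusted p = 0.0212, with 3.73% of regions called). The 20 regions of 50 or more reads in either experiment were then removed before testing and from the read totals. This left 3587 of 4021 reads in experiment 1 and 2552 of 6032 in experiment 2. HMGA1 region 1 then lost its call (log2 ratio -1.92, Fisher's exact test, adjusted p = 0.9) and NUCKS1 region 3 kept it (log2 ratio 4.70, Fisher's exact test, adjusted p = 5.19e-10, with 1.21% of regions called). The latter p-value takes 37 reads of experiment 2 as independent, although 29 of them shared both ends, and can be too small. In single groups of read names, each with fewer reads, neither passed (2.03%, 2.29% and 2.12% of regions called). HMGA1 region 1 held 5 and 0, 5 and 1, and 6 and 2 reads there, higher in experiment 1 in all 3 groups. NUCKS1 region 3 held 0 and 3, 1 and 15, and 1 and 19, higher in experiment 2 in all 3. The groups are not separate samples, because the same fragments recur across them. All 3 held the HMGA1 fragment from 34213023 to 34213068 in experiment 1. All 3 also held the NUCKS1 fragment from 205684613 to 205684634 in experiment 2. A shared direction is therefore not counted as independent repeats. As loci, the 4 regions of HMGA1 together passed (20 and 6 reads, log2 ratio -2.32, Fisher's exact test, adjusted p = 0.00547; 4.08% of 1079 loci called), and the locus of NUCKS1 regions 1 to 4 did not (20 and 43 reads, log2 ratio 0.52, Fisher's exact test, adjusted p = 0.881).

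The other 7 regions did not pass. Of these, NUCKS1 region 1 came nearest, with 6 and 1 reads (log2 ratio -3.17, Fisher's exact test, p = 0.0188, adjusted p = 0.25). NUCKS1 regions 2, 4 and 5 held 7 and 3, 5 and 2, and 5 and 3 reads, with log2 ratios of -1.81, -1.91 and -1.32. Of all 9 regions, 6 held more reads in experiment 1, 1 held more in experiment 2 and 2 held equal numbers. Over the list, 622 of 1181 regions (52.7%) held more in experiment 1. The median log2 ratio of shares was -1.59 for the 9 regions and -1.17 for all. The single region with more reads in experiment 2 was NUCKS1 region 3.

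**Figure D3:**
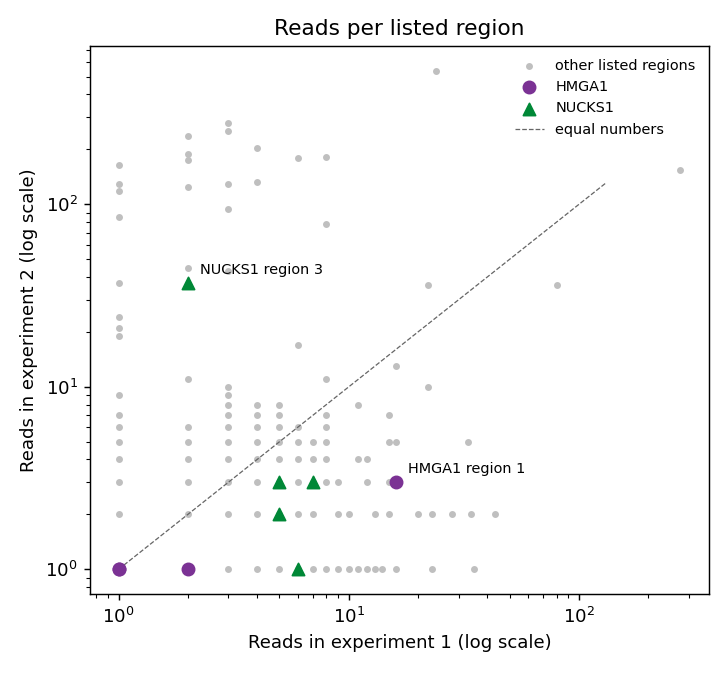
Reads of experiment 2 against reads of experiment 1 for every listed region, both axes on a log scale, with HMGA1 as circles, NUCKS1 as triangles and a dashed line at equal numbers. NUCKS1 region 3 lies above the line with 2 and 37 reads, HMGA1 region 1 below it with 16 and 3, and the circle at 1 and 1 stands for HMGA1 regions 2 and 4.

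Fragment ends matched between experiments in 6 of the 9 regions, a smaller share than over the list, a difference that was not tested. Fragments that shared their 3′ end, and whose 5′ ends were identical or shifted downstream by 1 nt in experiment 2, were found in 6 of the 9, compared with 1019 of 1181 over the list (86.3%). In HMGA1 region 1 and NUCKS1 region 1, 2 of the 9, both ends were identical, as they were in 223 of 1181 regions over the list (18.9%). A start 1 nt further downstream in experiment 2 was thus common in the list and not particular to these genes. In HMGA1 region 4 and in NUCKS1 regions 2, 4 and 5 the fragment of experiment 2 began 1 nt further downstream. The remaining 3 regions were HMGA1 regions 2 and 3 and NUCKS1 region 3. In HMGA1 region 2 the single fragments of the experiments were 53 and 55 nt long and differed by 7 nt at the 5′ end and 5 nt at the 3′ end. In HMGA1 region 3 they were 60 and 26 nt long and differed by 8 and 26 nt. In NUCKS1 region 3 the 3′ ends were the same and the 5′ ends were 23 nt apart.

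NUCKS1 regions 2 and 4 had several 5′ ends in experiment 1 and 1 in experiment 2. NUCKS1 region 2 had 3 fragments in experiment 1, with 5′ ends at 205685394, 205685392 and 205685386, and 1 fragment in experiment 2, with its 5′ end at 205685385. NUCKS1 region 4 likewise had 3 fragments in experiment 1, with 5′ ends at 205684383, 205684379 and 205684356, and 1 in experiment 2, at 205684382. NUCKS1 region 1 began at 205685737 in all 6 reads of experiment 1 and in the read of experiment 2, the only NUCKS1 region with a single shared 5′ end. NUCKS1 region 5 had 2 fragments in each experiment, all with the 3′ end at 205682902, and 5′ ends at 205682929 and 205682926 in experiment 1 and at 205682928 and 205682925 in experiment 2. Over both genes, 3 of the 9 regions, HMGA1 regions 2, 3 and 4, rested on 1 fragment in each experiment, against 800 of 1181 (67.7%) in the list.

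Mapping quality, a deposited score of 0 to 70 read as the aligner's confidence in the position, was lower in HMGA1 than in NUCKS1 in experiment 1. HMGA1 reads had a median of 55 in experiment 1 and 39.5 in experiment 2, and none of its 26 reads reached 70. NUCKS1 reads had a median of 70 in experiment 1, where 21 of 25 were at 70 and 0 were under 30. In experiment 2 the NUCKS1 median was 9 over reads and 44 over distinct fragments, each scored by its best read, against 39.5 and 26 in HMGA1. Scoring by the best read raises such medians: the fragment of 29 reads in NUCKS1 region 3 had a median of 9 and a best score of 38. Of the NUCKS1 reads of experiment 2, 30 of 46 (65.2%, interval 49.8 to 78.6) were under 30. All 30 lay in region 3: without it the median was 70 with 0 of 9 reads under 30. Over all reads the median was 70 in experiment 1 and 66 in experiment 2, with 14.8% and 18.9% under 30.

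Within HMGA1 the quality differed by region. In region 1, 13 of 16 reads of experiment 1 and 2 of 3 of experiment 2 had 30 or more, and the reads under 30 were fragments of 25 nt. HMGA1 region 3 was at 29 and 26 and region 4 at 25 in both experiments, so neither held a read of 30 or more in either. By a looser condition, no read of 30 or more in at least 1 experiment, these were 2 of the 9 regions, against 161 of 1181 (13.6%). With a minimum of 30, HMGA1 kept 2 regions and NUCKS1 kept 5. Within NUCKS1 region 3, the 6 reads at quality 38 carried 907 of the 967 copies, 1 read was at 30, 29 reads at 9 carried 57 copies, and 1 was at 0.

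Beside these values stand those of all reads by width. Of reads of 17 to 25 nt, 42.5% in experiment 1 and 54.1% in experiment 2 were under 30, and 0 reached 70. In that width class NUCKS1 had 4 reads in experiment 1 and 38 in experiment 2. Of reads of 40 nt or more, 87.2% in experiment 1 and 71.1% in experiment 2 had a quality of 70, as had all 13 and 3 such reads of NUCKS1, whereas 0 of 10 and 0 of 3 such reads of HMGA1 did. Its longest read, of 73 nt, had 57.

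**Figure D4:**
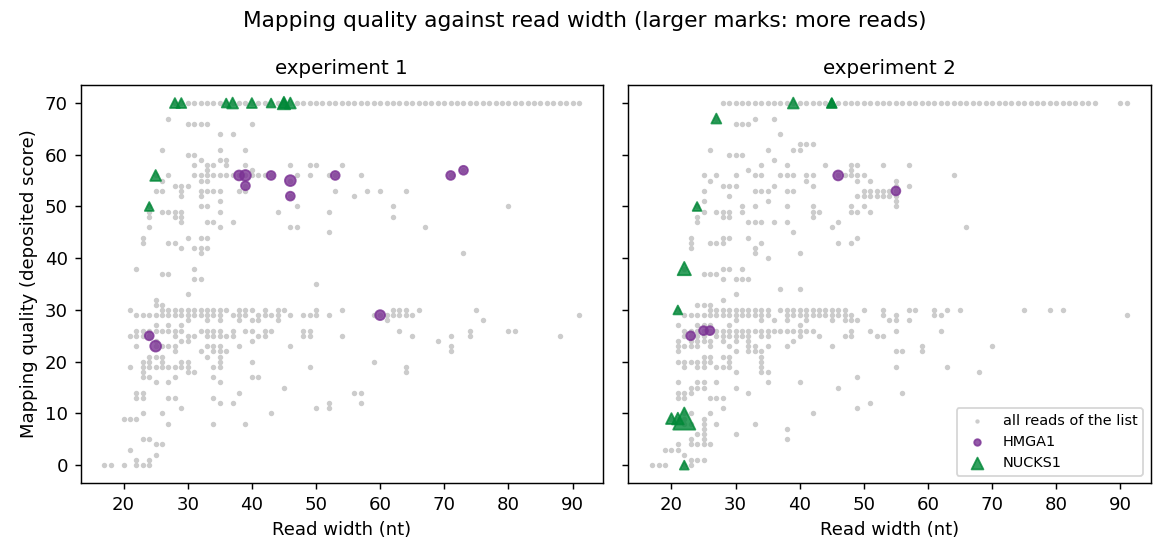
Mapping quality (deposited score) against read width in nt, 1 panel an experiment, for all listed reads in grey, HMGA1 as circles and NUCKS1 as triangles, with larger marks for more reads. HMGA1 reads stay at or below 57 at every width, and the NUCKS1 reads of experiment 2 with quality 9 are 20 to 22 nt wide.

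The 3′ UTR sequences of GENCODE 29 also differ between the genes. The HMGA1 3′ UTR has a GC content of 60.4%, higher than all but 7.17% of 19098 protein-coding genes, and the NUCKS1 3′ UTR has 36.8%, below the median of 42.9%. GENCODE names 8 pseudogenes of HMGA1 and 1 of NUCKS1. Of the windows of 22 nt in the HMGA1 3′ UTR, 356 of 1326 (26.8%) occur on the same strand in a transcript of another gene, among them HMGA1P1, MFSD2B and C2orf81, as do 126 of 1303 windows of 45 nt (9.67%). For NUCKS1 the numbers were 38 of 5440 (0.699%) and 0 of 5417. The shared windows of 22 nt occurred in 5 other genes for HMGA1 and in 295 for NUCKS1, so the few of NUCKS1 were the more widespread. The window lengths were taken from the fragments of NUCKS1 region 3, and the search covered annotated transcripts, not the genome. The bases of the 9 regions themselves were not used here, since no sequence of the files' build was at hand. The part that such copies, or the read width, had in the values of either gene was not tested.

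The loci with read numbers most like those of the genes were found among the 68 other loci with at least 2 regions, by the distance over log2 of the number of regions and of the reads of both experiments. For HMGA1 these were chr17:41167020-41167505 with 4 regions and 25 and 7 reads (distance 0.36), chr12:49330364-49331832 with 4 regions and 16 and 5 reads (distance 0.38) and chr2:96850685-96851279 with 3 regions and 23 and 11 reads (distance 0.90), all on the minus strand. For the NUCKS1 locus of regions 1 to 4 they were chr12:4412471-4414123 with 4 regions and 10 and 52 reads (distance 0.97), chr21:9827111-9827577 with 3 regions and 39 and 46 reads (distance 1.02) and chr16:29821786-29822264 with 4 regions and 24 and 92 reads (distance 1.11), all on the plus strand. HMGA1 thus had near neighbours in this measure and NUCKS1 had none as close. Likeness here is of read numbers in 2 experiments only.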

How the data were processed

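RNA from 4 iCLIP libraries of HEK293F cells was analysed from 2 deposited lists of aligned reads and 1 list of regions. The submitters' processing notes name build hg19 and the tools bedtools, SAMtools, Novoalign and CASAVA (version 1.8.2). Not given in the sources used here: their order, filters and use of control reads. In the deposited lists the score of a read, a whole number from 0 to 70, was read as mapping quality, an inference from the values. The deposited regions and reads give positions only, and reads were counted here. Library depth is unknown: the lists hold 4021 and 6032 reads, all inside listed regions. All 9 regions of HMGA1 and NUCKS1 equalled merged reads of the experiments, with abutting reads joined, as did 1176 of 1181 in all.

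Each region's share of reads was tested between experiments with two-sided Fisher's exact tests, Benjamini-Hochberg adjusted over all 1181 regions (scipy 1.17.1, with pandas 2.3.3, numpy 2.4.6, matplotlib 3.10.9 and Python 3.11.15). The test was checked only on simulated reads drawn independently, so that check does not cover a fragment that recurs in several reads. Reads may not be independent molecules, and p-values can then be too small. In experiment 1, 5 of 11 HMGA1 fragments, 8 of 11 NUCKS1 fragments and 53.3% of all fragments occurred in at least 2 groups of read names, and in experiment 2, 1 of 5, 6 of 10 and 39.1%. Whether these are copies of a molecule was not tested. The labels do not say whether the experiments came from separate cultures. GENCODE 29 gave lengths and sequences of transcripts, not positions. Named were every region of both genes and, for each gene, the 3 loci nearest in number of regions and reads. The genes, lists and tests were chosen with earlier results of these data known. A list of other chromatin proteins and motifs at 5′ ends were not analysed here, as they need annotation and sequence of hg19. Alternatives concerned mapping quality, the unit counted, totals, joined regions, groups of read names and the tolerance of matching ends.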

Additional observations from a re-analysis of the deposited data

How the results depend on the processing

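Of 50 alternatives for summary values, 4 reversed a direction, all for the NUCKS1 ratio of shares, and 19 moved a count or ratio by over 1.5 times or a median beyond its interquartile range. The other 27 stayed within these bounds. At mapping quality 30 or more, HMGA1 kept 2 regions, and 3 reads and 2 fragments in experiment 2, NUCKS1 kept 16 reads in experiment 2, and 1 region differed in share. With fragments within 3 nt counted once, NUCKS1 had 5 fragments in experiment 2. The log2 ratio of shares of HMGA1 (-2.32) was -1.01 by distinct fragments, -5.07 by copies, -3.04 in reads with no prefix and -1.01 without region 1. All listed reads summed to 16518 copies in experiment 1 and 88074 in experiment 2. By reads, the median ratio over all listed regions was -1.17, near the HMGA1 value without region 1. That of NUCKS1 (0.29) was -1.16 at mapping quality 30 or more, -0.01 by distinct fragments, -1.13 in reads with no prefix, -1.93 without region 3 and 1.61 by copies; leaving out a region was chosen after seeing the data. Regions of differing share numbered 0 by distinct fragments and in each group of read names, and 1 with reduced totals or as loci. By distinct fragments, the 2 regions called by reads held too few to pass under any split. Identical ends were found in 2 of the 9 regions and in 223 of 1181 over the list (18.9%). Over distinct fragments, each scored by its best read, the median mapping quality in experiment 2 was 44 for NUCKS1 and 26 for HMGA1. Over reads it was 9 and 39.5, so the order of the genes reversed. The cause was not tested. Without replicate 1 or 2, HMGA1 held 4 merged clusters and NUCKS1 held 5, which the list's requirement of reads from both experiments largely fixes. No paired analysis was possible because no read can be assigned to MOV10 or control. With 1 to 7 reads in most regions of the 2 genes, smaller differences could not be seen.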
